A study of Mus musculus with 2 samples.

Results

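The interleukin 1 (IL-1) and inflammasome genes described here were Il1b, Il1a, Il1rn, Il1r1, Il1r2, Il18, Nlrp3, Pycard, Casp1 and Casp4, taken by symbol as 10 of the 32285 genes in the deposited single-cell matrices. All 10 were present in both matrices, and they were followed across leukocyte classes gated on marker genes. Aristolochic acid nephropathy (AAN CKD in the labels), a chronic kidney disease caused by a plant toxin, had been set up in B6 mice, and their kidneys were taken at week 2. Kidney tissue was digested with Liberase, a collagenase blend, and viable cells carrying CD45, a surface protein of nearly all leukocytes, were sorted for 3′ Chromium sequencing in 1 library that pooled 2 hashed samples. The labels hold no untreated kidney, and they do not say whether the hashed samples are separate animals. The sample title also names week 1 and a single mouse, and the words human kidneys and mesenchymal stem cells in the labels were not used, because every gene identifier is mouse. Expression in the Visium section was not analysed here.

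IL-1 beta is made as an inactive precursor that the protease caspase-1 cuts after an inflammasome has formed. Inflammasomes are protein platforms in which a sensor such as NLRP3 joins caspase-1 through the adaptor ASC, the product of Pycard, and in the mouse Casp4 encodes caspase-11, which senses bacterial lipopolysaccharide in the cytosol. Released IL-1 alpha and IL-1 beta act through the receptor encoded by Il1r1, whereas the receptor antagonist from Il1rn and the decoy receptor from Il1r2 restrain them. In the kidney these cytokines are known as early inflammatory signals of injured epithelium and of recruited and resident mononuclear phagocytes. RNA levels, which are all that was measured here, do not show precursor cleavage or secretion.

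Il1b and Il1a are neighbours on the minus strand of chromosome 2 of the mouse GRCm38 (mm10) build, at chr2:129364570-129371139 and chr2:129299610-129309972. They stand 54.6 kb apart with 0 protein-coding genes between them, and Il1rn lies elsewhere on the same chromosome, at chr2:24336853-24351494 on the plus strand. The opposite-strand genes Il1bos and Gm14023 overlap Il1b and Il1a. Whether the counting used strand is not given in the sources used here, and whether reads of these genes entered the counts was not examined. RefSeq promoter windows of GRCm38.p6, running from 250 bases before to 50 bases after an annotated start, were found for all 10 genes, 15 windows in all. The windows of the cytokines and of the antagonist are printed because the report sets Il1b beside the other IL-1 ligand and beside the antagonist of both, with capitals marking motif matches on either strand. The first belongs to Il1a (chr2:129309923-129310222, minus strand), the second to Il1b (chr2:129371090-129371389, minus strand), and the others to Il1rn (chr2:24336610-24336909 and chr2:24345121-24345420, plus strand). A further Il1rn window (chr2:24345041-24345340, plus strand) overlaps the last of these, held an NF-kB match at 29 and is not printed.
Il1a: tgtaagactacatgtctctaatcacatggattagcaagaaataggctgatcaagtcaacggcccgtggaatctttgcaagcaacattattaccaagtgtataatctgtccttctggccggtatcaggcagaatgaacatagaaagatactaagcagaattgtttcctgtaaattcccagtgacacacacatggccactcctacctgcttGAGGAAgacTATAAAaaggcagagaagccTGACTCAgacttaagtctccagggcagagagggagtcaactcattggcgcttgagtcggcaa
Il1b: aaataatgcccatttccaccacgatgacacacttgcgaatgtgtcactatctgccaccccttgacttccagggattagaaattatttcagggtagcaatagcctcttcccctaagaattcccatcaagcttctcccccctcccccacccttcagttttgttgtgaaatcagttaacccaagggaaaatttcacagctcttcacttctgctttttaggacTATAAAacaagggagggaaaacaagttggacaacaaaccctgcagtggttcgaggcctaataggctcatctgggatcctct
Il1rn upstream start: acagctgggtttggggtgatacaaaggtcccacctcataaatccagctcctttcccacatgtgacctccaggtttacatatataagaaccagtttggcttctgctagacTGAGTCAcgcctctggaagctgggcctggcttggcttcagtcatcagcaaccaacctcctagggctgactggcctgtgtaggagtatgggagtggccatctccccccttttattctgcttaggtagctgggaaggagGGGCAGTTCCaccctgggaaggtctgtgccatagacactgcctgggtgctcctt
Il1rn downstream start: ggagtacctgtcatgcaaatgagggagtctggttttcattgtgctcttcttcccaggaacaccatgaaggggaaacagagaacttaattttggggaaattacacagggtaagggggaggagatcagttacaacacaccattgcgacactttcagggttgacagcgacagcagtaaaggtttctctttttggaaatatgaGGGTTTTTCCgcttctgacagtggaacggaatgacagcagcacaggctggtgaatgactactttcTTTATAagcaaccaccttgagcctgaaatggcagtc
The TATA box was searched as TATAAA, which 13.6% of all 32851 promoter windows hold, and PU.1 as GAGGAA, which 28.3% hold. NF-kB was searched as GGG followed after any 3 bases by TTCC, found in 5.56% of windows. AP-1 was searched as TGA followed after any 1 base by TCA, found in 7.81%. C/EBP was searched as TTGCNNAA, found in 10.8% of windows and in neither cytokine window. With positions counted from 0 at the annotated start, the only one of these motifs in the Il1b window was a TATA box at -31. Il1a held a TATA box at -32, an AP-1 match at -12 and a PU.1 match at -41. The upstream Il1rn window held an NF-kB match at -4 and an AP-1 match at -141, and the downstream window an NF-kB match at -51 and, on the reverse strand, a TATA match at 14. The letters describe these windows only and bear on no measured value.

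The matrices held 7015 cell barcodes, 3315 in hashed sample 1 and 3700 in hashed sample 2, with 0 barcodes shared, and 6552 cells (3086 and 3466) remained after filtering. Median depth was 5665.5 and 6566.5 unique molecular identifiers (UMIs) per cell. A class name followed by -like rests on marker genes only. In hashed samples 1 and 2 the gates gave 8 and 14 neutrophil-like cells, 97 and 93 classical monocyte-like cells, 331 and 411 C1q-intermediate cells, 45 and 33 migratory dendritic cell-like cells, 100 and 209 cDC2-like cells (dendritic cells of type 2), 1163 and 1786 C1q-high macrophage-like cells, and 895 and 442 T cell-like cells. C1q-high cells held at least 80, and C1q-intermediate cells 20 to 80, complement C1q UMIs per 10000, and 799 cells lay within 1.5-fold of the upper limit, so both are ranges of 1 scale. Levels are given in CPM, the UMIs of a gene scaled to all UMIs of the class, and their intervals are exact Poisson 95% intervals that cover counting error only. With no replicate groups there was no test, and the calls higher and lower were kept for genes whose levels differed by 1.5-fold or more, in one direction, in each hashed sample.

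Il1b, which encodes IL-1 beta, was found in every myeloid class, and its level spanned a wide range among them. Neutrophil-like cells held 14897 CPM (12928 to 17082) in hashed sample 1 and 22152 CPM (20216 to 24223) in hashed sample 2. Classical monocyte-like cells held 1592 CPM (1492 to 1697) and 1980 CPM (1865 to 2100), cDC2-like cells 887.6 and 1116 CPM, and C1q-intermediate cells 622.5 and 1058 CPM. C1q-high macrophage-like cells held 235.7 CPM (225.1 to 246.7) and 284.6 CPM (275.5 to 293.9), and T cell-like cells, which are not known as a main source, 26.8 and 45.9 CPM. The order neutrophil, monocyte, cDC2, C1q-intermediate, C1q-high and T cell was therefore the same in both hashed samples, although the intervals of cDC2-like and C1q-intermediate cells overlapped in hashed sample 2. Each of these classes was higher in hashed sample 2. Patrolling monocyte-like cells held 429.9 and 929.2 CPM and migratory dendritic cell-like cells 497.5 and 933.5 CPM, with intervals that overlapped in both hashed samples. Type 1 dendritic cell-like cells (cDC1-like) were low, at 139 and 28.3 CPM.

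Monocyte-like and cDC2-like cells had the largest shares of cells with an Il1b UMI after neutrophil-like cells. The share was 58.8% and 72.0% of classical monocyte-like cells, 60.0% and 78.0% of cDC2-like cells, 36.0% and 49.1% of C1q-intermediate cells, and 21.9% and 26.7% of C1q-high cells. T cell-like cells, taken as the class that should lack the transcript, had an Il1b UMI in 8.83% and 5.20%, at median depths of 3923 and 3433 UMIs against 6276 and 6891 in C1q-high cells. After each cell was thinned to 1000 UMIs the shares were 39.6% and 51.6% in monocyte-like, 33.0% and 45.5% in cDC2-like, 20.1% and 31.7% in C1q-intermediate, 10.2% and 12.1% in C1q-high and 1.91% and 1.38% in T cell-like cells. Each of the other 4 classes thus stood above the share found in T cell-like cells. The part of free RNA in any of these shares was not tested. Among neutrophil-like cells 7 of 8 and 14 of 14 carried Il1b, but they were shallow, with medians of 1288 and 1589.5 UMIs and 35475 UMIs in all. Their dissociation stress genes, which tissue digestion can induce, summed to 18749 and 18744 CPM, against 2826 and 2797 CPM in C1q-high cells. The part of these genes in the Il1b level was not tested.

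**Figure D1:**
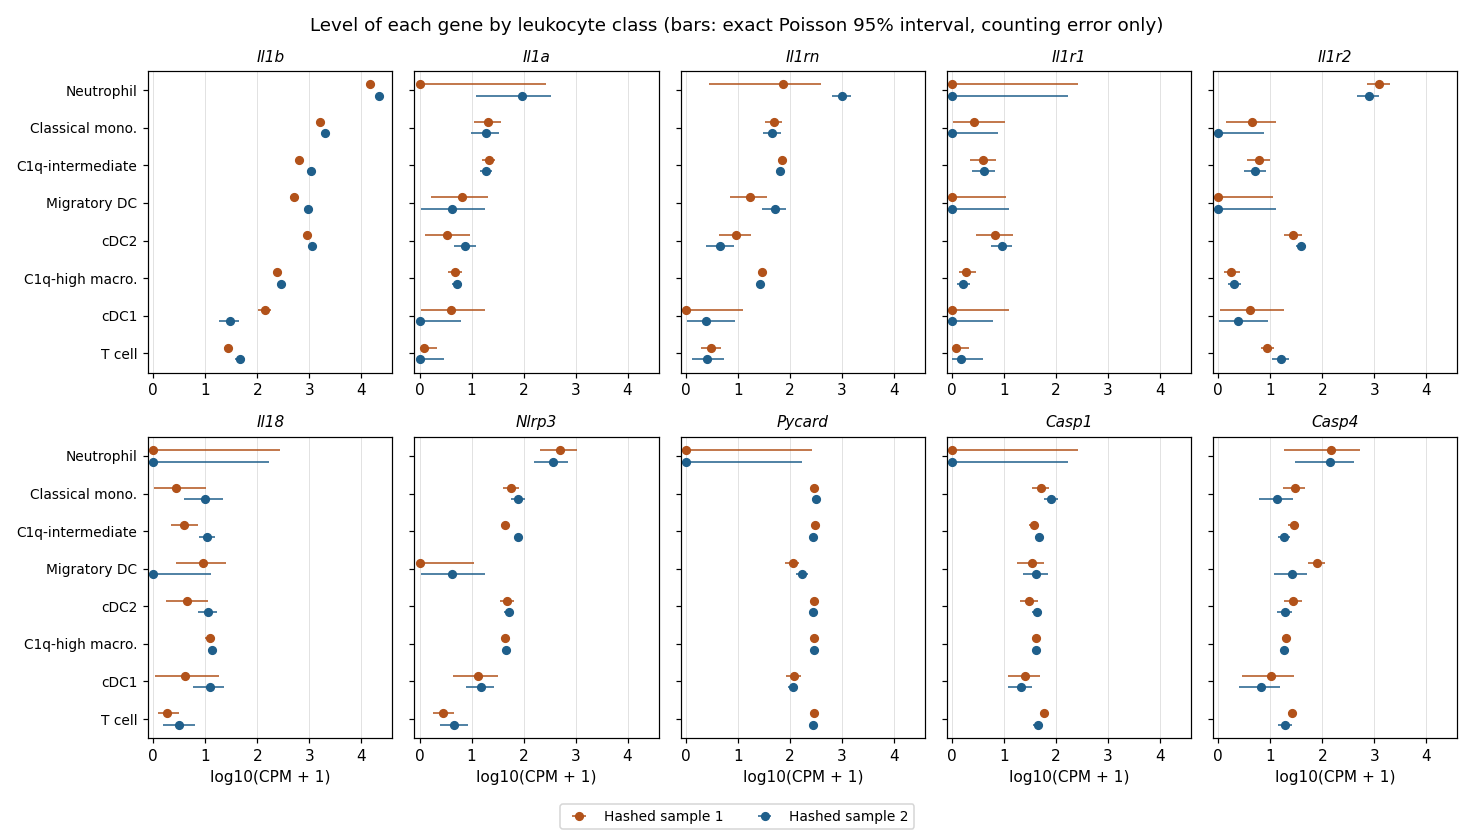
Level of each of the 10 genes (x axis, log10 of CPM + 1) in 8 leukocyte classes (rows), with hashed sample 1 in orange and hashed sample 2 in blue and exact Poisson 95% intervals as lines. Il1b runs from 26.8 and 45.9 CPM in T cell-like cells to 14897 and 22152 CPM in neutrophil-like cells, while Pycard stays near 290 CPM in T cell-like, monocyte-like and macrophage-like cells.

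Il1b was also unevenly spread among cells of 1 class. In thinned C1q-high cells 89.8% and 87.9% had 0 Il1b UMIs, and the 10% of cells with the most Il1b held 99.3% and 93.7% of its UMIs. The same share of cells held 53.9% and 52.7% of the UMIs of Pycard, a transcript of like thinned total (282 and 493 UMIs against 297 and 571 for Il1b). The highest C1q-high cell held 16 and 22 Il1b UMIs, against 3 and 3 for Pycard. In classical monocyte-like cells the top 10% of cells held 63.0% and 50.8% of the Il1b UMIs, and 50% and 61.1% of those of Pycard. These shares rest on 154 and 183 Il1b UMIs but 26 and 18 Pycard UMIs, totals too unlike to compare them. The highest monocyte-like cell held 23 and 15 Il1b UMIs, against 2 and 2 for Pycard.

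By mass, most Il1b RNA of the sort did not lie in the classes with the highest level. C1q-high cells, 37.7% and 51.5% of cells, held 24.9% and 25.2% of all Il1b UMIs. C1q-intermediate cells, 10.7% and 11.9% of cells, held 19.7% and 21.1%. Classical monocyte-like cells held 12.8% and 7.54% from 3.14% and 2.68% of cells, cDC2-like cells 10.2% and 15.0% from 3.24% and 6.03%, and neutrophil-like cells 2.76% and 3.28% from 0.259% and 0.404%. Cells left ungated, 10.5% and 9.06% of the sort, held 24.1% and 24.0%. They take in 38 and 25 mixed droplets that met a T, NK, B or neutrophil gate beside C1q, 8 of which met the neutrophil gate. Il1b over the whole sort was 369.7 CPM in hashed sample 1 and 595.5 CPM in hashed sample 2.

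**Figure D2:**
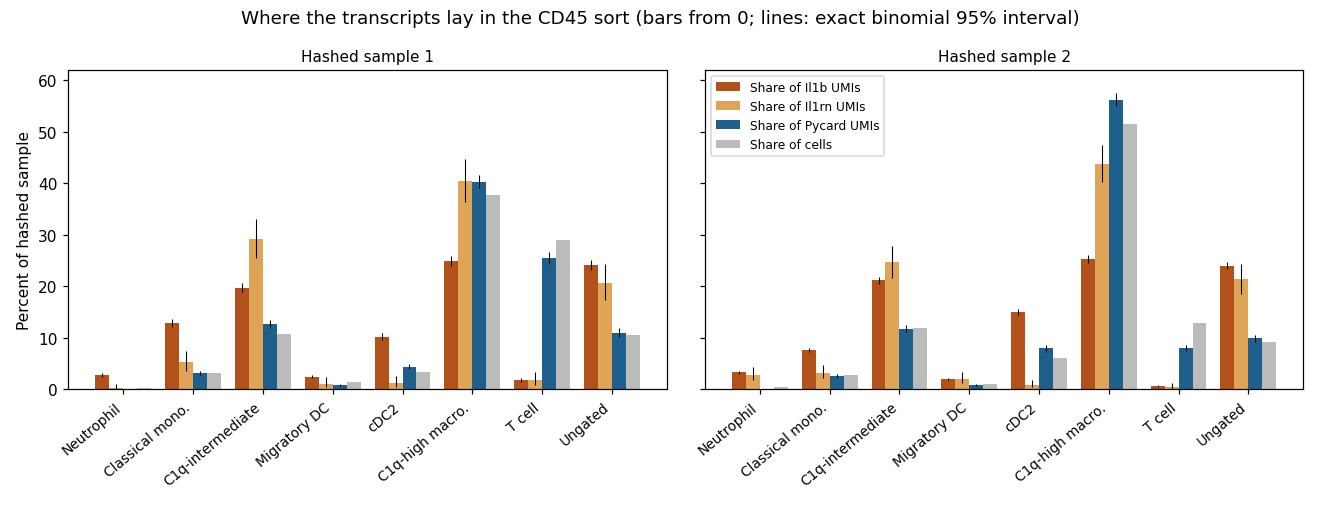
Share of all Il1b, Il1rn and Pycard UMIs and of all cells (y axis, percent of the hashed sample; lines, exact binomial 95% intervals) in 8 classes for each hashed sample. Classical monocyte-like, cDC2-like and C1q-intermediate bars for Il1b rise above the grey bar for cells, whereas C1q-high cells hold 24.9% and 25.2% of Il1b UMIs with 37.7% and 51.5% of cells.

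Il1a, the second IL-1 receptor ligand, was sparse, at 7.03 and 6.61 CPM over the sort. C1q-intermediate cells held 20.4 and 17.8 CPM and classical monocyte-like cells 20.2 and 17.9 CPM, levels whose intervals overlapped. C1q-high cells held 3.83 CPM (2.58 to 5.47) and 4.22 CPM (3.18 to 5.50), below both. cDC2-like cells, high in Il1b, held only 2.34 and 6.60 CPM of Il1a. C1q-intermediate cells carried 34.0% and 31.9% of the Il1a UMIs of the sort.

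Il1rn, which encodes the IL-1 receptor antagonist, did not follow the order of Il1b. C1q-intermediate cells held 68.5 CPM (58.3 to 79.9) and 65.2 CPM (56.3 to 75.2), classical monocyte-like cells 48.7 and 44.7 CPM, and C1q-high cells 28.6 and 26.1 CPM. cDC2-like cells held 8.19 and 3.55 CPM, near the 2.06 and 1.55 CPM of T cell-like cells. Neutrophil-like cells gave 1 UMI (72.7 CPM) in hashed sample 1 and 22 UMIs (1013 CPM) in hashed sample 2, which do not form a common level. Per 100 Il1b UMIs, C1q-high cells held 12.1 (10.5 to 13.9) and 9.17 (8.19 to 10.3) Il1rn UMIs and C1q-intermediate cells 11.0 and 6.17. Classical monocyte-like cells held 3.06 and 2.26, and cDC2-like cells 0.922 (0.370 to 1.91) and 0.318 (0.128 to 0.657), so that among these 4 classes the antagonist was scarcest beside Il1b in cDC2-like cells. C1q-high and C1q-intermediate cells together carried the larger part of Il1rn, with 40.5% and 43.8% in C1q-high and 29.1% and 24.6% in C1q-intermediate cells.

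The receptors of IL-1 were nearly absent from macrophages at this depth. Il1r1, the signalling receptor (chr1:40225080-40317257, plus strand), totalled 32 and 50 UMIs over the sort, with 5.85 and 8.12 CPM in cDC2-like cells, 2.98 and 3.07 CPM in C1q-intermediate cells and 0.893 and 0.614 CPM in C1q-high cells. Il1r2, the decoy receptor that lies 99.8 kb from it (chr1:40074079-40125231, plus strand), was highest in neutrophil-like cells, at 1235 CPM (719.7 to 1978) and 782.9 CPM (456.1 to 1254). cDC2-like cells came next, with 26.9 and 38.6 CPM and a UMI in 16.0% and 19.6% of cells. In C1q-high cells Il1r2 stood at 0.766 and 0.998 CPM, with a UMI in 0.430% and 0.560% of cells. T cell-like cells held 7.83 and 15.0 CPM of Il1r2, and these came from few cells: 38 UMIs lay in 20 of 895 cells in hashed sample 1, and 29 UMIs in 10 of 442 cells in hashed sample 2. Within T cell-like cells the Cd8-positive ones held 0.771 and 5.96 CPM and Foxp3-negative Cd4-positive ones 9.63 and 20.7 CPM. Foxp3-positive Cd4-positive ones held 5.08 and 12.4 CPM, from 1 UMI in each hashed sample. All Foxp3-positive T cell-like cells held 22.0 and 7.06 CPM, from 9 and 1 UMIs, so the Il1r2 of T cell-like cells was not confined to Foxp3-negative ones. Gm38070 overlaps Il1r1 on the same strand, and Il1r2 is overlapped by Gm37347 on the same strand and Gm16894 on the opposite one. Whether these overlaps lowered the receptor counts was not examined.

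Il18, whose cytokine acts on T and NK cells, was sparse too and lay mostly in C1q-high cells, where Il1b was low. C1q-high cells held 11.2 CPM (9.01 to 13.8) and 12.4 CPM (10.5 to 14.4), with a UMI in 7.31% and 8.40% of cells, against 0.447% and 0.905% of T cell-like cells. They carried 69.3% and 63.6% of all Il18 UMIs, beside 39.0% and 52.8% of the UMIs of all genes. C1q-intermediate cells held 2.98 and 9.90 CPM, so that only hashed sample 1 separated the intervals of these classes. Over both hashed samples together its interval in C1q-high cells (11.9 CPM) overlapped that in cDC1-like cells (8.74 CPM). Split by hashed sample, cDC1-like cells held 3.09 and 11.3 CPM of Il18 and cDC2-like cells 3.51 and 10.15 CPM. Il18r1, a chain of the IL-18 receptor, was higher in T cell-like and NK cell-like cells than in C1q-high cells. It stood at 98.5 and 91.8 CPM in T cell-like and 178 and 285.6 CPM in NK cell-like cells, against 0.510 and 0.921 CPM in C1q-high cells. Il18bp, which encodes the secreted inhibitor of IL-18, stood at 22.2 and 9.91 CPM in C1q-high cells. Bco2 and Tex12 overlap Il18 (chr9:50554827-50581840, plus strand) on the opposite strand.

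The inflammasome genes divided into those present in nearly all leukocytes and those largely myeloid. Pycard (chr7:127989708-127993867, minus strand), encoding the adaptor ASC, held 292 and 315 CPM in classical monocyte-like, 300.8 and 276 CPM in C1q-intermediate, 286.5 and 277 CPM in cDC2-like, 288 and 298 CPM in C1q-high, and 294 and 285 CPM in T cell-like cells. In the order over both hashed samples together each of these 5 classes overlapped its neighbour, whereas cDC1-like cells, at 117 and 116 CPM, and migratory dendritic cell-like cells, at 112 and 170 CPM, stood lower. Casp1 (chr9:5298517-5307265, plus strand), encoding caspase-1, was at 57.5 and 43.9 CPM in T cell-like cells and 40.8 and 40.6 CPM in C1q-high cells. Casp4, encoding caspase-11 and starting 1.6 kb beyond Casp1 (chr9:5308828-5336783, plus strand), was at 25.3 and 18.6 CPM in T cell-like and 18.9 and 17.0 CPM in C1q-high cells. T cell-like cells thus held Pycard, Casp1 and Casp4 at levels of the order of those in macrophages.

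Nlrp3 (chr11:59541568-59566956, plus strand), the sensor, was largely myeloid. It held 57.1 and 78.7 CPM in classical monocyte-like, 43.4 and 76.8 CPM in C1q-intermediate, 48.0 and 50.8 CPM in cDC2-like and 42.5 and 45.6 CPM in C1q-high cells, against 1.85 and 3.61 CPM in T cell-like cells. Neutrophil-like cells gave 509 and 368 CPM from 7 and 8 UMIs. cDC1-like cells held 12.4 and 14.2 CPM, and migratory dendritic cell-like cells 0 and 3.15 CPM. Gsdmd, encoding the pore protein gasdermin D that caspase-1 cleaves, stood at 42.0 and 59.0 CPM in classical monocyte-like, 32.7 and 36.0 CPM in C1q-high and 15.5 and 18.6 CPM in T cell-like cells. Neutrophil-like cells held 0 UMIs of Pycard, Casp1 and Il18, but 0 counts there allow up to 218 and 138 CPM (3 counts per hashed sample). For Pycard these limits lay below the levels in monocyte-like, C1q-intermediate, cDC2-like, C1q-high and T cell-like cells. Its exact Poisson upper limits were 268.1 and 169.9 CPM, and in hashed sample 1 that interval overlapped those of monocyte-like and cDC2-like cells. Casp1 and Il18 stood under the limits in all these classes, so 0 counts do not show a difference.

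Classical monocytes are blood cells that enter injured tissue, and classical monocyte-like cells were first set against C1q-high macrophage-like cells. The name of the monocyte-like class leans on Chil3, at 3310 and 2010 CPM. The classical marker Ly6c2 was at 43.7 and 44.7 CPM in it, against 1.404 and 0.5375 CPM in C1q-high cells. T cell-like cells held 101.4 and 215.7 CPM of Ly6c2. The patrolling monocyte markers Treml4 (70.5 and 76.9 CPM) and Ace (90.7 and 93.0 CPM) were also present in monocyte-like cells. The markers thus leave the name classical unsettled. Il1b was 6.76-fold (6.24 to 7.31) and 6.96-fold (6.50 to 7.44) higher in monocyte-like cells, the only gene counted among the 4 of 10 that reached 50 CPM. Of all 2825 genes measured in this comparison 8.32% were counted as higher, 7.58% as lower and 15.9% in either direction, against 1 of the 4 genes here. Nlrp3 (1.34-fold and 1.73-fold), Casp1 (1.23-fold and 1.94-fold) and Pycard (1.01-fold and 1.06-fold) were not counted. The genes under 50 CPM were described by value only, with Il1a 5.26-fold and 4.24-fold and Il1rn 1.70-fold and 1.71-fold. The median log2 ratio of the 4 measured genes was 0.30 and 0.74, beside 0.12 and 0.06 over all measured genes.

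Dissociation stress genes, which tissue digestion can induce, differed between these classes as well: 9 of 11 measured were counted as higher in monocyte-like cells. Their summed level was 5468 and 6709 CPM in monocyte-like and 2826 and 2797 CPM in C1q-high cells. Their part in the Il1b result was not tested. Of 8 defining neutrophil markers 4 (Retnlg, Cxcr2, Ly6g and Stfa2l1) were at 0 in monocyte-like cells, where the marker list summed to 48.7 and 55.5 CPM. Among 20 further inflammasome genes 7 were measured, of which the innate sensor gene Naip2 (65.5 and 60.8 CPM in monocyte-like, 31.3 and 31.3 CPM in C1q-high cells) and the interferon-induced GTPase Gbp2 were counted as higher. Txnip, encoding a thioredoxin-binding protein, and P2rx7, the ATP receptor that triggers NLRP3, were lower in monocyte-like cells, at 25.2 and 32.2 CPM for P2rx7 against 83.7 and 75.9 CPM in C1q-high cells. Naip2 and Gbp2 have close paralogs, between which the counting could split reads. The kinase gene Irak1 was the 1 IL-1 family gene measured here, in the C1q-intermediate and in the MHC II comparison, and was counted in none of them. Of 17 NF-kB response genes 8 were measured and 2, Icam1 and Osm, were counted as higher.

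C1q-intermediate cells, set against the same C1q-high cells, differed in both an agonist and its antagonist. Il1b was 2.64-fold (2.46 to 2.83) and 3.72-fold (3.54 to 3.90) higher, and Il1rn 2.397-fold (1.95 to 2.95) and 2.50-fold (2.08 to 2.99) higher, in C1q-intermediate cells. They were 2 of 3 measured genes, where 5.94% of 2743 genes were counted as higher, 6.34% as lower and 12.3% in either direction. Pycard was at 300.8 and 276 CPM in C1q-intermediate and 288 and 298 CPM in C1q-high cells and was not counted. Il1a, under 50 CPM, was 5.34-fold (3.31 to 8.72) and 4.21-fold (2.82 to 6.26). Nlrp3 differed between the hashed samples, at 1.02-fold and 1.69-fold. The median log2 ratio of the 3 genes was 1.02 and 1.06, beside 0.06 and 0.01 over all measured genes.

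Of 10 measured NF-kB response genes 5 were counted as higher in C1q-intermediate cells and 0 as lower, among them the cytokine Tnf (66.4 and 82.6 CPM in C1q-intermediate, 23.6 and 30.3 CPM in C1q-high cells) and the neutrophil chemokine Cxcl2 (652 and 1235 CPM, against 349.6 and 538 CPM). Of 5 further inflammasome genes 3 were counted as lower, Txnip, P2rx7 and Ninj1, the last encoding a protein of membrane rupture in pyroptosis, at 103 and 75.8 CPM in C1q-intermediate and 191 and 156 CPM in C1q-high cells. Stress genes stood at 3937 and 5360 CPM in C1q-intermediate and 2826 and 2797 CPM in C1q-high cells, with 5 of 11 counted as higher, and their part was not tested. Markers of other cell types moved with this comparison: classical monocyte markers summed to 275 and 111 CPM in C1q-intermediate against 52.1 and 19.9 CPM in C1q-high cells, with 6 of 6 detected in C1q-intermediate cells. Those of cDC2 summed to 118 and 139 CPM against 36.0 and 44.3 CPM. Their part in the result was not tested.

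cDC2-like cells, again set against C1q-high cells, held more Il1b and less of its antagonist. Il1b was 3.77-fold (3.46 to 4.10) and 3.92-fold (3.72 to 4.14) higher in cDC2-like cells and was counted. It was 1 of 2 measured genes, the other being Pycard (0.994-fold and 0.931-fold), and 9.09% of 2762 genes were counted as higher, 13.6% as lower and 22.7% in either direction. Il1rn, under 50 CPM, was 0.286-fold (0.114 to 0.5999) and 0.136-fold (0.0543 to 0.283). Il1r2, also under 50 CPM, was 35.1-fold (13.9 to 105.5) and 38.6-fold (21.3 to 75.9). The median log2 ratio of the 2 measured genes was 0.93 and 0.92, beside -0.06 and -0.07 over all measured genes. When genes of at least 20 CPM were admitted, Il1rn was counted as lower and Il1r2 as higher in cDC2-like cells.

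Among 19 genes of the IL-1 family and its signalling, 18 were in the files and 3 were measured in the cDC2 comparison. Il1rl1, the receptor of the alarmin IL-33, was at 112 and 120 CPM in cDC2-like and 4.59 and 11.9 CPM in C1q-high cells, and Il18rap, a chain of the IL-18 receptor, at 93.6 and 81.7 CPM against 9.57 and 14.1 CPM. Both were counted as higher, and the kinase Irak1 was not. Of 7 further inflammasome genes the DNA sensor Aim2 was counted as higher in cDC2-like cells (60.8 and 57.9 CPM, against 36.2 and 33.7 CPM), while Txnip, P2rx7 and Ninj1 were counted as lower. Of 10 NF-kB response genes 6 were counted as higher and 1, Cxcl2, as lower, at 148.5 and 252 CPM in cDC2-like and 349.6 and 538 CPM in C1q-high cells. Stress genes summed to 4689 and 5176 CPM in cDC2-like cells, with 7 of 11 counted as higher, and their part was not tested. The monocyte, C1q-intermediate and cDC2 comparisons share the C1q-high cells and are not independent of each other.

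Migratory dendritic cell-like cells, gated on Ccr7, Fscn1 and related genes, held less Pycard than cDC2-like cells, and Il1b at a level that was not counted as different. Pycard was 0.391-fold (0.274 to 0.546) and 0.615-fold (0.456 to 0.814) and was counted as lower, the only one counted of 2 measured genes, where 20.8% of 2665 genes were counted as lower, 15.5% as higher and 36.3% in either direction. A background this high leaves little to read from 1 of 2 genes, whose median log2 ratio was -1.05 and -0.46, beside -0.13 and -0.14 over all measured genes. With TMM scaling, which moved the median log2 ratio of all genes to 0.03 from -0.13, Pycard was -1.11 and -0.56 on the log2 scale and no longer counted, and with classes set by the highest marker score it was -0.18 and -0.14. Il1b was at 497.5 and 933.5 CPM in migratory and 887.6 and 1116 CPM in cDC2-like cells, and was not counted. Under 50 CPM, Nlrp3 gave 0 and 3.15 CPM in migratory cells against 48.0 and 50.8 CPM in cDC2-like cells, and Il1r2 0 UMIs in both hashed samples, which allows up to 8.20 and 9.46 CPM, against 26.9 and 38.6 CPM. Il1rn was at 16.4 and 50.5 CPM against 8.19 and 3.55 CPM.

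Of 3 measured IL-1 family genes 2 were counted as lower in migratory cells, Il1rl1 (2.73 and 6.31 CPM, against 112 and 120 CPM in cDC2-like cells) and Il18rap. Of 5 further inflammasome genes Aim2 and Txnip were counted as lower and the GTPase genes Gbp2 and Gbp5, which are close paralogs, as higher, with Gbp5 at 120 and 66.2 CPM in migratory and 12.9 and 10.2 CPM in cDC2-like cells. Of 10 NF-kB response genes Nfkbia was counted as higher and Tnf, Ccl4 and Tnfsf9 as lower. Of 11 stress genes 8 were counted as lower in migratory cells, the list summing to 1930 and 2649 CPM against 4689 and 5176 CPM, and their part was not tested.

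Within C1q-high macrophages, cells low in MHC class II transcripts held less Il1b. MHC II-negative resident macrophages are a population the study set out to find, per its design text, and C1q-high cells were divided at 40 MHC class II UMIs per 10000, into 202 and 654 MHC II-low and 961 and 1132 MHC II-high cells. MHC II-low cells had 107 and 134.5 CPM of Il1b and their MHC II-high counterparts 266 and 375 CPM, 0.402-fold (0.340 to 0.473) and 0.358-fold (0.329 to 0.390), and was counted as lower. It was 1 of 2 measured genes, where 1.78% of 2695 genes were counted as lower, 3.01% as higher and 4.79% in either direction. Pycard, not counted, stood at 311 and 316 CPM in the MHC II-low ones, against 283 and 287 CPM in the others. The median log2 ratio of these 2 genes was -0.55 and -0.64, beside 0.13 and 0.12 over all measured genes. Il1rn was at 26.6 and 21.4 CPM against 29.1 and 29.0 CPM, Nlrp3 at 44.5 and 39.3 CPM against 42.0 and 49.4 CPM, and Il18 at 13.96 and 15.1 CPM against 10.6 and 10.7 CPM, all under 50 CPM.

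P2rx7 and Ninj1 were counted as higher in MHC II-low cells, 2 of 5 further inflammasome genes, with 121.7 and 99.2 CPM of P2rx7, against 74.7 and 61.7 CPM in MHC II-high ones. Of 7 NF-kB response genes Nfkbiz and Ccl4 were counted as lower. Of 10 stress genes 6 were counted as lower, the list summing to 1817 and 1802 CPM against 3065 and 3398 CPM, and their part in the Il1b result was not tested. Markers of cDC2 summed to 53.2 and 33.0 CPM in MHC II-low cells, where Zbtb46 was at 0, against 31.9 and 51.1 CPM, with Cd209a at 2.66 and 0.815 CPM against 5.69 and 12.9 CPM. Classical monocyte markers summed to 29.3 and 24.0 CPM against 57.5 and 17.4 CPM, with Chil3 at 1.99 and 12.6 CPM against 33.2 and 10.1 CPM, and the part of either list was not tested. TMM scaling moved the share of higher genes among all counted to 41.1% from 62.8%, and the median log2 ratio to -0.03 from 0.12. Il1b was lower with either.

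In T cell-like cells only Casp1 and Pycard reached 50 CPM, and neither was counted between Foxp3-positive (29 and 12 cells) and Foxp3-negative (265 and 107 cells) Cd4-positive cells, where 3.33% of 2855 genes were counted as higher, 3.01% as lower and 6.34% in either direction. Foxp3 is the defining factor of regulatory T cells. Casp1 was at 40.6 and 24.7 CPM in Foxp3-positive and 64.2 and 56.5 CPM in Foxp3-negative cells, from 8 and 2 UMIs in the Foxp3-positive cells. Pycard was at 371 and 470 CPM against 317 and 335 CPM. Their median log2 ratio was -0.17 and -0.23, beside 0.004 and -0.002 over all measured genes. Casp4 had 0 UMIs in these Foxp3-positive cells, which allows up to 15.2 and 37.1 CPM, against 31.6 and 30.1 CPM in Foxp3-negative cells. A difference was thus not detectable at the depth of hashed sample 2. All Foxp3-positive T cell-like cells, with or without a Cd4 UMI, held 14.7 and 7.06 CPM of Casp4, from 6 and 1 UMIs. All Foxp3-negative ones held 26.3 and 19.5 CPM. Of 5 further inflammasome genes 0 were counted. The IL-18 receptor gene Il18r1 was the 1 of 3 measured IL-1 family genes counted as higher, at 117 and 148.5 CPM in Foxp3-positive and 72.2 and 64.0 CPM in Foxp3-negative cells. Of 4 NF-kB response genes Nfkbiz was counted as higher, and of 8 stress genes Hspa1a, a close copy of Hspa1b, as lower. With TMM scaling the share of higher genes among all counted was 30.0%, against 52.5%, and Casp1 was counted as lower.

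**Figure D3:**
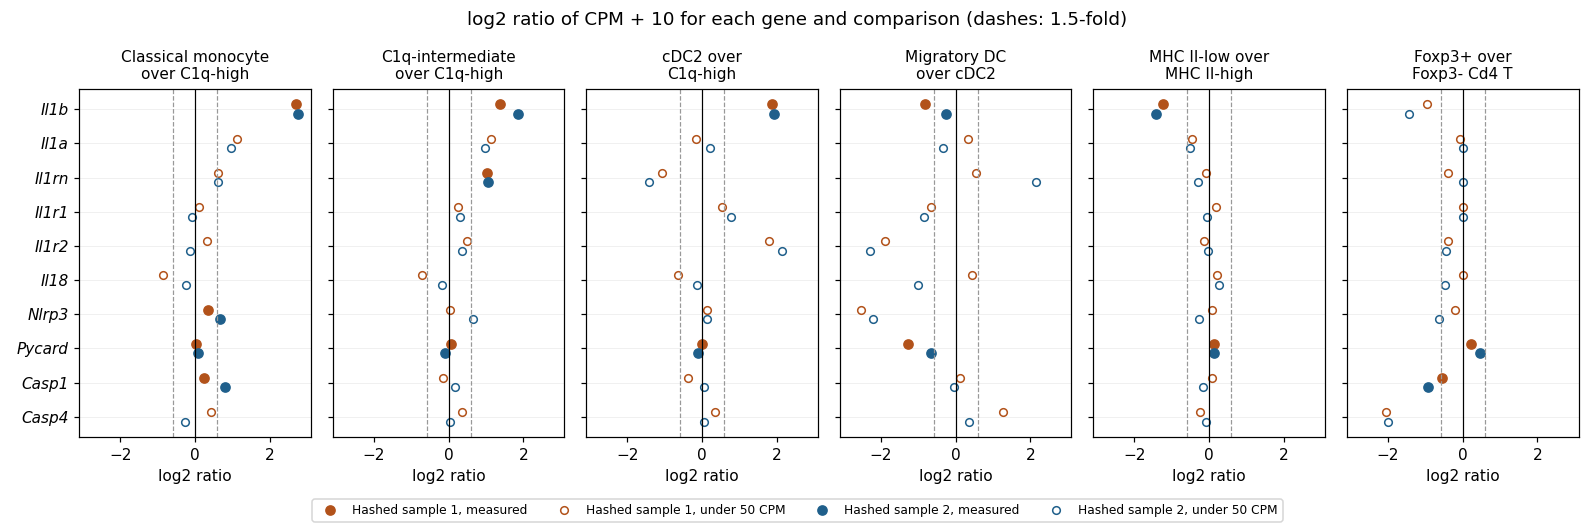
log2 ratio of CPM + 10 (x axis) for the 10 genes (rows) in 6 comparisons (panels, the class named first over the second); filled points reached 50 CPM in a class, open points did not, and dashes mark 1.5-fold. Il1b lies right of the dashes in the first 3 panels (2.71 and 2.76 in classical monocyte-like cells) and left of them in MHC II-low cells (-1.24 and -1.42), while Pycard lies between the dashes in every panel but that of migratory cells.

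Along the C1q scale the ligands and the antagonist were higher at low C1q and Il18 at high C1q. In 6 ranges of C1q level, from 20 to 40 up to at least 200 UMIs per 10000, Il1b held 427, 758, 348, 350, 170 and 166 CPM in hashed sample 1 and 1032, 1071, 447, 346, 277 and 171 CPM in hashed sample 2. Its level at the highest C1q was the lowest of the 6 in both. Il1rn held 58.1, 75.8, 74.6, 32.1, 17.7 and 13.7 CPM in hashed sample 1 and 79.4, 57.6, 53.8, 19.2, 24.6 and 18.7 CPM in hashed sample 2, a step near 120 UMIs per 10000. Il1a stood at 16.6 and 28.4 CPM in the lowest range and 1.37 and 0.485 CPM in the highest. Il18 stood at 1.04 and 5.88 CPM in the lowest range and 14.4 and 14.1 CPM in the highest, with intervals that overlapped in hashed sample 2. Pycard stood at 302 and 245 CPM in the lowest range and 285 and 308 CPM in the highest. Its intervals overlapped in hashed sample 1, and only in hashed sample 2 was it higher at the highest C1q with intervals apart. Stress genes summed to 3424 and 5018 CPM in the lowest and 2132 and 2199 CPM in the highest range, and their part in these gradients was not tested.

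**Figure D4:**
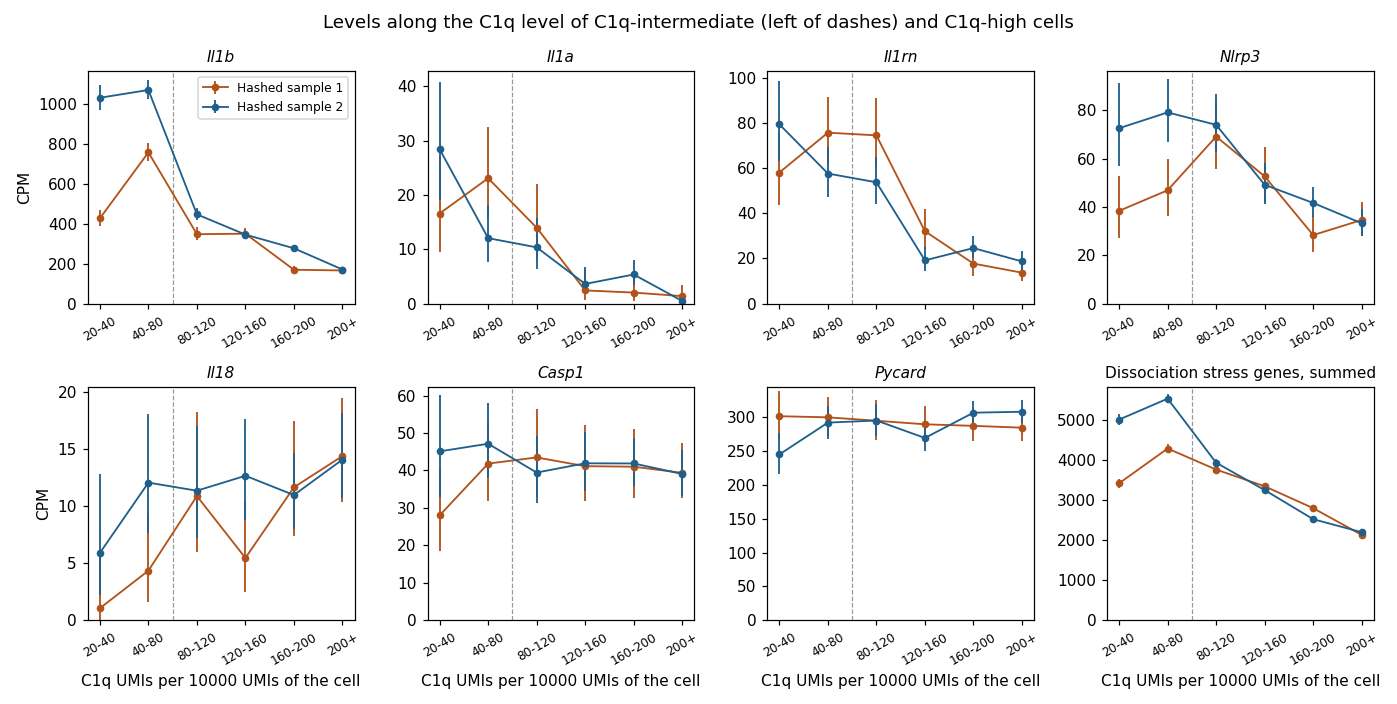
Level in CPM (y axis, from 0) of 7 genes and of the summed stress genes over 6 ranges of C1q UMIs per 10000 UMIs (x axis), with hashed sample 1 in orange, hashed sample 2 in blue and exact Poisson 95% intervals. Il1b and Il1rn are lowest at high C1q, Il18 is at 14.4 and 14.1 CPM there, and Pycard lies between 245 and 308 CPM throughout.

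Among C1q-high cells, those with Il1b transcripts also held more Il1a, Nlrp3 and Il1rn. C1q-high cells thinned to 1000 UMIs were grouped by 0, 1 or at least 2 Il1b UMIs, which gave 1013 and 1537, 58 and 107, and 57 and 104 cells, and the other genes were read from all their UMIs. Il1a was at 1.27 and 1.38, 11.2 and 2.66, and 44.5 and 55.9 CPM in these groups. Nlrp3 was at 36.8 and 38.1, 64.6 and 67.9, and 125.6 and 152.7 CPM. Il1rn was at 23.6 and 20.1, 56.1 and 65.2, and 96.8 and 87.7 CPM. Between cells with 0 and with at least 2 Il1b UMIs, the intervals of these 3 genes did not overlap in either hashed sample.

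The adaptor and caspase-1 transcripts did not follow. Pycard was at 289 and 301.4 CPM in cells with 0 Il1b UMIs and 311 and 249 CPM in those with at least 2, lower in hashed sample 2 only. Casp1 was at 40.6 and 41.5 CPM and 39.3 and 36.3 CPM, and Il18 at 11.9 and 13.0 CPM and 7.85 and 4.54 CPM. Casp4 was at 18.2 and 15.2 CPM and 34.0 and 33.3 CPM, with intervals apart in hashed sample 2 only. The summed NF-kB response genes stood at 1084 and 1261 CPM in cells with 0 Il1b UMIs and 6415 and 9315 CPM in those with at least 2. Stress genes stood at 2316 and 2227 CPM and 9207 and 9678 CPM, so cells with more Il1b were also those with more stress transcripts, whose part was not tested. Median depth was 6421 and 7034 UMIs in cells with 0 and 6095 and 6100.5 UMIs in cells with at least 2.

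**Figure D5:**
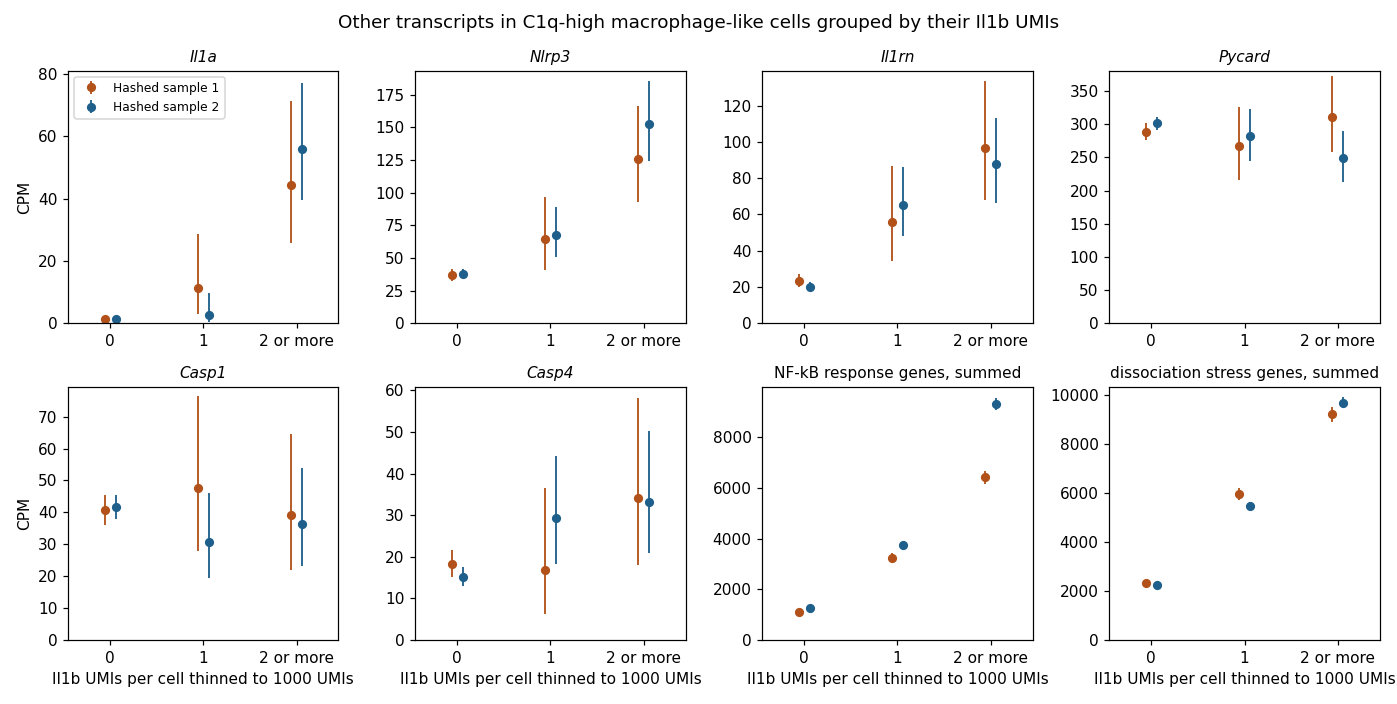
Level in CPM (y axis, from 0) of 6 genes and of the summed NF-kB response and stress genes in C1q-high macrophage-like cells with 0, 1 or at least 2 Il1b UMIs after thinning (x axis), with exact Poisson 95% intervals. Il1a, Nlrp3 and Il1rn are highest in cells with at least 2, and Casp1 stays level, at 40.6 and 41.5 CPM in cells with 0 and 39.3 and 36.3 CPM in cells with at least 2.

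Nlrp3 and Il1rn were also higher beside Il1b in C1q-intermediate and classical monocyte-like cells, with intervals apart in both hashed samples except for Il1rn in monocyte-like cells of hashed sample 2. In C1q-intermediate cells Nlrp3 was at 30.4 and 51.4 CPM with 0 Il1b UMIs and 112 and 126 CPM with at least 2, and Il1rn at 56.0 and 47.2 CPM and 119 and 89.2 CPM. In monocyte-like cells Nlrp3 was at 19.6 and 44.4 CPM and 101 and 133.5 CPM, and Il1rn at 14.0 and 18.5 CPM and 108 and 74.2 CPM. In cDC2-like cells Nlrp3 was at 33.7 and 45.05 CPM with 0 and 104 and 67.4 CPM with at least 2 Il1b UMIs, with intervals that overlapped in hashed sample 2. Il1rn there was at 5.32 and 0.919 CPM and 24.45 and 9.30 CPM, from 1 to 4 UMIs in each group, and its intervals overlapped in both. Il1a was at 7.47 and 6.30 CPM and 94.3 and 57.1 CPM in C1q-intermediate cells. In monocyte-like cells the hashed samples were unlike, at 5.60 and 11.1 CPM with 0 and 50.6 and 9.89 CPM with at least 2 Il1b UMIs. Pycard stood at 316 and 279 CPM and 244 and 276.5 CPM in C1q-intermediate cells. Stress genes were again higher beside Il1b, at 3133 and 4060 CPM with 0 Il1b UMIs and 8126 and 8485 CPM with at least 2 in C1q-intermediate cells.

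The genes whose level across classes was most like that of a given gene were ranked by Pearson r of log2(CPM + 10) over 7 classes in both hashed samples, 14 points that share a library, among 3847 genes. For Il1b these included Pira2 (r = 0.947), Ccrl2 (0.946), Cdkn1a (0.944) and Gda (0.928). For Il1rn they were Cstb (0.941), Alas1 (0.930), Mir22hg (0.913), Tmcc1 (0.905) and Cyba (0.904). For Casp1 they were Ppp2r2a (0.898), Glrx2 (0.862), D8Ertd738e (0.853), Sfr1 (0.846) and Tnfrsf1b (0.835). The best for Il18, which never passed 12.4 CPM in these classes, was Calr (0.724). Pira2 belongs to a family of close copies, so its reads are uncertain.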

How the data were processed

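The genes and lists described here were chosen with earlier results of these data known. Per the file headers the deposited matrices hold counts of unique molecular identifiers made by cellranger 6.1.1 (the submitters' processing notes name Cell Ranger 6.0 and Seurat 4.3.0), aligned to mm10 per the deposited run settings, in which hashtags 301 and 305 mark the hashed samples. Barcodes with under 200 genes, under 500 UMIs or over 10% mitochondrial UMIs were left out, as were 44 doublets called by Scrublet and 5 by hashtag (0.742% of 6601 cells). Classes are gates of 3 to 6 marker UMIs from at least 2 or 3 genes. After the data were seen, 63 droplets that met a T, NK, B or neutrophil gate beside C1q were set aside as ungated. Marker sums (CPM, hashed samples 1 and 2) placed each class, with macrophage markers at 5361 and 5722 in C1q-intermediate, 19853 and 19450.4 in C1q-high and 552 and 608 in cDC2-like cells. Classical monocyte markers summed to 4732 and 3611 in monocyte-like cells, of which Chil3 gave 3310 and 2010 and Ly6c2 43.7 and 44.7.

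Counts were summed per class and hashed sample and scaled to CPM. Ratios were log2(CPM + 10), which understates the change of low genes, and a gene was measured at 50 CPM in at least 1 class of each hashed sample. Thinning drew 1000 UMIs per cell without replacement, leaving out shallower cells. Ratio intervals are exact conditional and shares of cells exact binomial (Clopper-Pearson), at 95%, and a count of 0 allows 3 counts. With 1 sample no test was made. The text names the 10 genes, the genes of 4 lists (19, 20, 17 and 12 genes) that were counted, with examples, and up to 5 most alike genes for Il1b, Il1rn, Il18 and Casp1; 1 of these is not reported here. The counting rule was tested on simulated data. Alternatives were stricter or score-based gates, doublets or mixed droplets kept, other depth, pseudocount, level and MHC II limits, per-cell means, thinning, and TMM scaling in edgeR 4.0.16 (R 4.3.3). Work ran in Python 3.11.15 with scanpy 1.11.5 and scipy 1.17.1. Spot positions of the Visium section were not used.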

Additional observations from a re-analysis of the deposited data

How the results depend on the processing

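Over 12 other settings, 620 log2 ratios of the 10 genes were recomputed, of which 556 stayed within counting error and 64 moved beyond it. Reversal was judged only for the 6 ratios called in the main setting, with 0 reversals. Of 62 counts of genes 51 stayed within 1.5 times, although a count that stayed can hold other genes. Over these settings the mean log2 ratio of Il1b ran between 2.56 and 3.06 in classical monocyte-like, 1.38 and 2.16 in C1q-intermediate, 1.64 and 2.24 in cDC2-like and -1.59 and -1.03 in MHC II-low cells. Counts that left this range are given here. In monocyte-like over C1q-high cells 2 genes were counted, in place of 1, with doubled gates (Nlrp3 added), classes by marker score (Il1rn) and a limit of 20 CPM (Il1rn). In cDC2-like over C1q-high cells a limit of 20 CPM counted 3, in place of 1. In migratory over cDC2-like cells 0 were counted with TMM scaling, 2 with doubled gates and with per-cell means (Nlrp3 lower), and 3 with a limit of 20 CPM, in place of 1. In Foxp3-positive over Foxp3-negative cells 1 was counted, in place of 0, with TMM scaling and with a pseudocount of 1 (Casp1), and with a limit of 20 CPM (Casp4). The causes were not tested. Over all genes, 284 were counted in migratory over cDC2-like cells with score classes, in place of 968, and 657 with thinning and 293 with per-cell means in the Foxp3 comparison, in place of 181. A limit of 20 CPM counted 738 in place of 449 (monocyte), 974 in place of 626 (cDC2), 1542 in place of 968 (migratory) and 480 in place of 181 (Foxp3). The share counted as higher was 63.3% with per-cell means and 58.9% with thinning in C1q-intermediate over C1q-high cells, in place of 48.4%, and 56.0% with score classes in migratory over cDC2-like cells, in place of 42.7%.

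No paired analysis was possible because there is 1 sequenced sample and no groups that share replicate numbers. The limits are that the labels do not say whether the hashed samples are separate animals and that there was no untreated kidney. Transcripts of the dissociation stress list also vary with Il1b, and whether digestion induced them was not tested. A further limit is that 22 neutrophil-like cells give wide intervals.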

Other observations

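Ungated cells, 323 and 314 of them, stand outside every comparison and held Il1b at 776 and 1440 CPM in hashed samples 1 and 2. Their myeloid markers summed to 17578 and 17717 CPM and their MHC class II transcripts to 25092 and 25998 CPM, while macrophage markers summed to 1446 and 1254 CPM. Neutrophil markers summed to 201.5 and 523.7 CPM there. These cells take in 38 and 25 mixed droplets that met a T, NK, B or neutrophil gate beside C1q, 8 of them the neutrophil gate. Il1b in these cells stood between the levels of C1q-intermediate and classical monocyte-like cells.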
